A study of Saccharomyces cerevisiae with 3 samples.

Results

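The VPS genes of Saccharomyces cerevisiae, the budding yeast, are named for vacuolar protein sorting, the delivery of proteins from the Golgi through endosomes to the vacuole. The strains described here are the deletion strains whose annotated gene symbol starts with VPS and a number, without VPS71 and VPS72, which belong to the SWR1 chromatin complex. The rule found 39 of 5325 named genes and 238 of 18794 named probes, and it used no measured value. A value on all 3 arrays, which the test needed, was present for 38 of the 39. VPS73, whose probes were empty in experiment 1, was the exception. The symbols are not a pure list of sorting factors, since VPS75 encodes a histone chaperone. They also miss subunits of the same complexes that carry other names, which are given beside them.

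The arrays screened the pool for deletions that interact with loss of CIN8, which encodes a kinesin motor of the mitotic spindle. Per the labels, a pool of 5896 heterozygous diploid knockout strains, each identified by its tags, was transformed with a cin8D::URA3 cassette and sporulated. Spores spread on MM with 5-fluoroorotic acid (5-FOA), a compound toxic to cells with URA3 activity, gave the pool of haploid single mutants. Spores of the same transformed pool on MM-Ura, where URA3 is needed, gave the pool of haploid double mutants. Both pools grew for 2 days at 30 °C. The 5-FOA of the single mutant pool was at 0.1, 0.15 and 0.2% in experiments 1, 2 and 3. Tags amplified from genomic DNA were labelled with Cy5 for the single mutants and with Cy3 for the double mutants on each array. The molecule field of the records reads total RNA. Each strain is a deletion read inside a mixed pool, and nothing in the labels says that the 3 experiments were separate transformations or sporulations. The p-values therefore cover the spread among 3 arrays only, and that spread may be technical.

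Values are log2 ratios as deposited, less the median of their own array and tag set, and given as the mean ± SD over 3 arrays. The formula of the ratio was not given in the sources used here, and the sign is that of the deposited value, with no pool assigned to a side. For orientation, KIP1, the gene of the other kinesin of the CIN8 family, stood at 4.99 ± 0.50, URA1, of uracil biosynthesis, at 4.87 ± 0.50, and the CIN8 strain itself at -2.23 ± 0.26. A strain was called where limma's test of the mean against 0 gave a Benjamini-Hochberg adjusted p under 0.05 over all 5204 strains tested. Each strain carries 2 tags, here tag set A and tag set B, which were also tested alone.

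Sorting to the vacuole is built from protein complexes that act in turn. Retromer returns receptors from endosomes to the Golgi, and the GARP complex tethers the returning vesicles there. The ESCRT complexes sort ubiquitinated membrane proteins into vesicles that bud into the endosome, CORVET and HOPS tether membranes for fusion at endosomes and at the vacuole, and the VPS34 kinase makes the lipid phosphatidylinositol 3-phosphate that recruits many of these proteins.

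Among the VPS strains, 4 were called positive (VPS36, VPS25, VPS51 and VPS41) and 6 negative (VPS9, VPS17, VPS1, VPS3, VPS4 and VPS29) of 38 tested. These are 10.5% and 15.8%, against 16.2% and 17.4% among all strains tested, so that the calls were about as frequent as, or less frequent than, in the whole pool. At 2-fold or more, 2 were positive (5.26%) and 3 negative (7.89%), against 5.34% and 9.47% of all strains. The median of the 38 was -0.35, against -0.097 for all strains. Of their means 25 were negative and 13 positive, against 2881 negative and 2323 positive over all strains. The means ran from -1.70 (VPS9) to 1.77 (VPS36), with an SD across strains of 0.83 against 0.98 for all strains. The calls rest on all 3 arrays: without any 1 of experiments 1, 2 or 3, limma called 0 of the 38 and 0 of all strains, with 19, 11 and 10 of the 38, and 1885, 1989 and 1888 of all strains, at an unadjusted p under 0.05. Without centring, 4 were positive and 12 negative. All 6 negative calls, those of VPS9, VPS17, VPS1, VPS3, VPS4 and VPS29, were lost with the 5-FOA percentage as a covariate (2 positive, 0 negative) and with the tag value nearer to 0 (3 positive, 0 negative). Calls fell in the whole pool too, from 1748 of 5204 strains to 228 with the covariate and to 751 with the nearer tag.

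**Figure D1:**
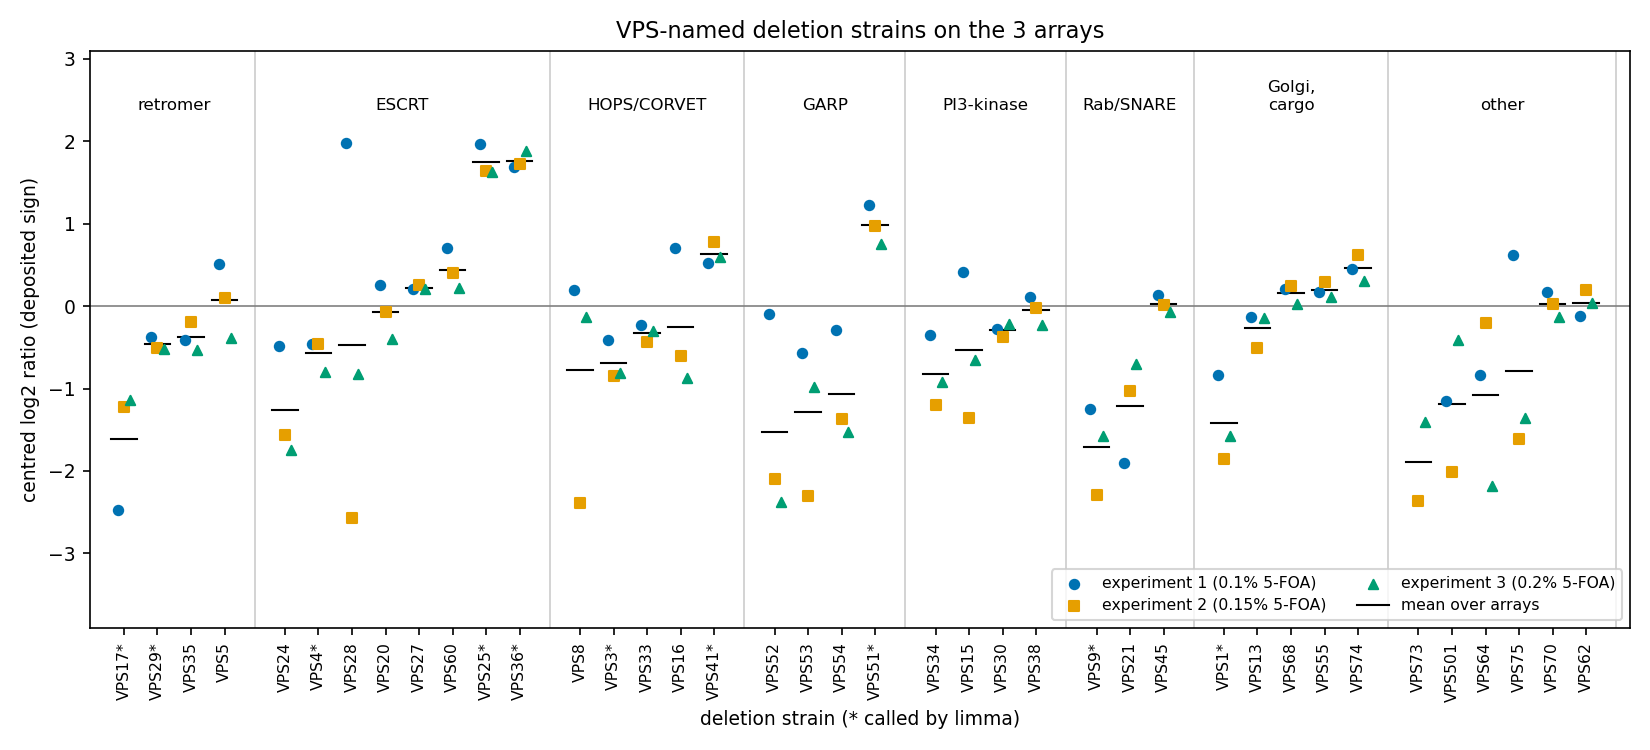
Centred log2 ratio (vertical axis) of each VPS-named deletion strain on the 3 arrays (points) with its mean (bar), grouped by complex, where an asterisk marks a call by limma. VPS25 and VPS36 stand above 1.6 on every array, while VPS9, VPS17 and VPS1 are negative on every array and more spread.

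The ESCRT strains with the highest ratios were those of ESCRT-II, the complex that links cargo-binding ESCRT-I to the membrane-cutting ESCRT-III. VPS36 encodes the subunit that binds ubiquitin and phosphoinositide lipids, and its strain had 1.68, 1.73 and 1.88 in experiments 1, 2 and 3. Its mean was 1.77 ± 0.11 (SD, n = 3), or 3.40-fold, with an adjusted p of 0.0097 by limma. VPS25, the subunit that contacts VPS20 of ESCRT-III, had 1.97, 1.64 and 1.63, with a mean of 1.74 ± 0.20, or 3.35-fold (limma, adjusted p = 0.0110). The means of both tags lay close together on the arrays for both strains. SNF8, the remaining subunit, had 1.37, 1.03 and 1.17, with a mean of 1.19 ± 0.17, so that all 9 values of the 3 ESCRT-II strains lay between 1.03 and 1.97. All 3 strains were called positive on the mean, against 16.2% of all strains tested. They were also called positive by each of their tags alone, against 11.2% of all strains with both tags. VPS25 gave 1.87 ± 0.60 for tag set A and 1.62 ± 0.37 for tag set B, more spread than its mean of both tags. On the arrays these tags had 2.41, 1.96 and 1.225 (tag set A) and 1.53, 1.31 and 2.03 (tag set B). VPS36 gave 1.88 ± 0.25 and 1.65 ± 0.27, and SNF8 gave 1.08 ± 0.08 and 1.30 ± 0.28. VPS25 and VPS36 were the 2 VPS strains called with the 5-FOA percentage as a covariate (limma, adjusted p = 0.0492 for VPS25 and 0.0489 for VPS36). That fit called 228 of all 5204 strains, against 1748 without the covariate.

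ESCRT-0 and ESCRT-I bind ubiquitinated cargo first. VPS27, of ESCRT-0, had 0.21, 0.26 and 0.21 and was not called (limma, adjusted p = 0.122), while HSE1, its partner, was called positive at 0.41 ± 0.10, just inside the threshold (limma, adjusted p = 0.0498). VPS28, of ESCRT-I, was read in tag set B alone and had 1.98, -2.57 and -0.82, so that its arrays opposed each other. Limma called none of the 4 ESCRT-I strains on the strain mean. None had an unadjusted p under 0.05 there, while 2589 of all 5204 strains did. MVB12, of ESCRT-I, had the lowest mean of them at -1.59 ± 1.65, with -0.39, -3.48 and -0.90 and 2 of 6 values empty. STP22, the ubiquitin-binding subunit of ESCRT-I, had a mean of -0.17, with -1.39 for tag set A (called negative) and 1.05 for tag set B (called positive). The difference between its tags passed limma's test (limma, adjusted p = 0.0157).

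The strains of ESCRT-III, whose filaments cut the vesicle neck, and of its disassembly lay mostly on the other side. Of 9 strains, 3 were called negative and 1 positive, against 17.4% and 16.2% of all strains tested, with a median of -0.40. VPS24, which caps the filament with DID4, had -0.48, -1.57 and -1.74 and missed the threshold at -1.26 ± 0.69 (limma, adjusted p = 0.0569), with -1.08 and -1.45 in its tags. The main filament subunit, SNF7, stood at -3.11 ± 0.48, and DID4 at -1.77 ± 0.80, and both were called negative. In both, 1 tag was empty on 1 array, so that their means mix the tags unequally. VPS20, which starts the filament, had 0.26, -0.08 and -0.39, and its tags opposed each other, at -0.78 in tag set A (called negative) and 0.64 in tag set B.

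VPS4, the ATPase that takes the filament apart, had -0.45, -0.45 and -0.80, and was called negative at -0.57 ± 0.20 (limma, adjusted p = 0.0440). Tag set B carried this call, at -0.84 against -0.30 in tag set A, and with the median of spots VPS4 was not called. VPS60, a regulator related to the filament subunits, had 0.71, 0.40 and 0.22 and was not called (limma, adjusted p = 0.0860). DID2, which recruits VPS4, was called positive at 0.54 ± 0.17 but had -0.12 for tag set A and 1.19 for tag set B. The difference between the DID2 tags passed limma's test (limma, adjusted p = 0.0342). VTA1, an activator of VPS4, and BRO1, which brings a deubiquitinase, were not called. BRO1 was called in opposite directions by its tags, at 0.96 and -1.64.

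Over all 18 ESCRT strains under either kind of name, 5 were called positive and 3 negative, with a median of -0.12. The shares over all strains tested were 16.2% and 17.4%. Their SD across strains was 1.22, against 1.15 for GARP and under 1 for the other complexes, and their means ran from -3.11 (SNF7) to 1.77 (VPS36). The plot of subunits by complex shows ESCRT-II apart from SNF7, DID4 and VPS24 within it.

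**Figure D2:**
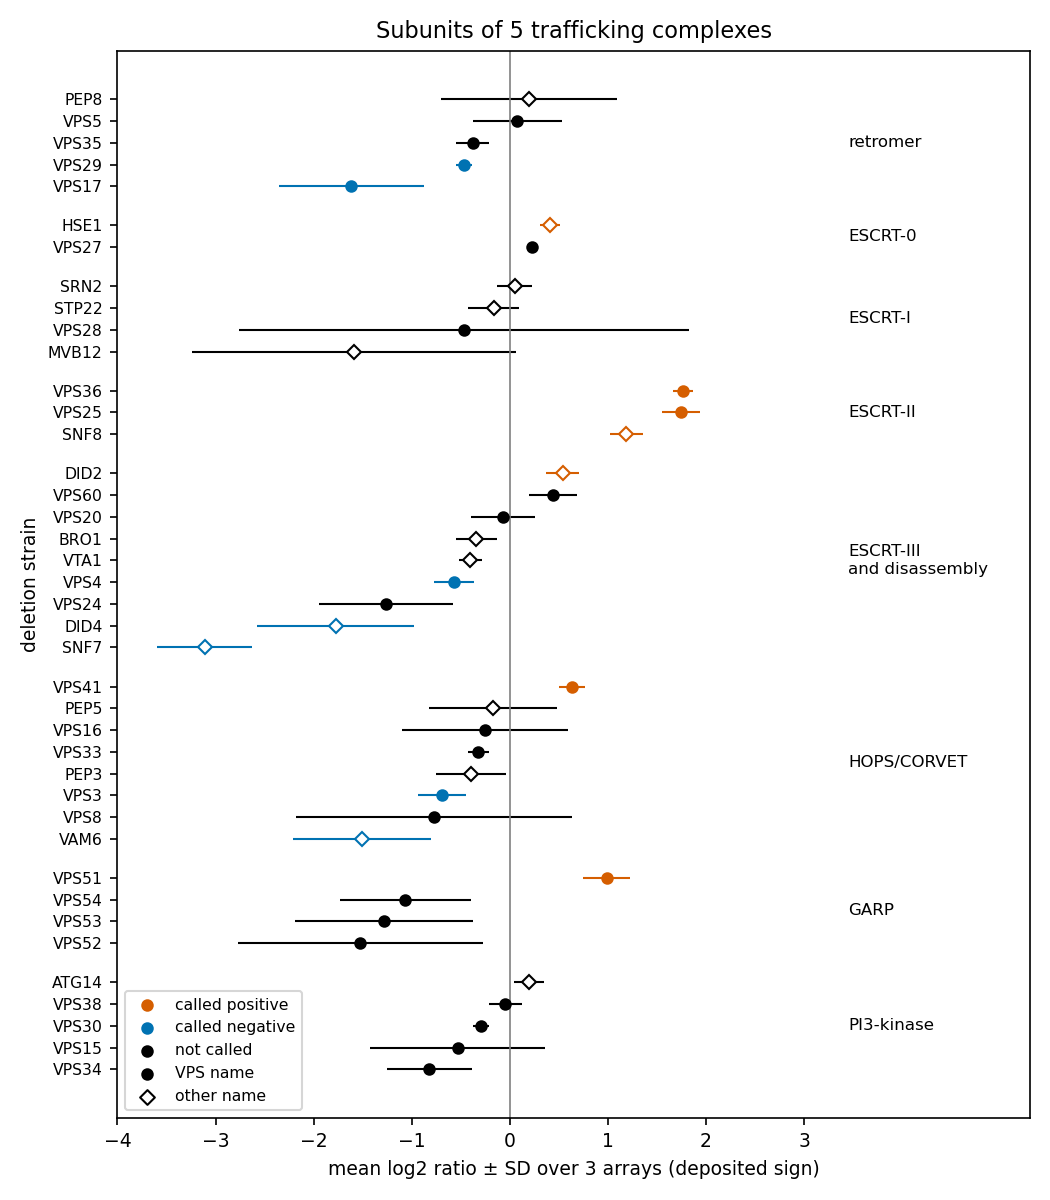
Mean log2 ratio ± SD over 3 arrays (horizontal axis) of each measured subunit of 5 trafficking complexes, with VPS-named genes as filled circles, other names as open diamonds, and colour for limma's call. The 3 ESCRT-II strains lie between 1.19 and 1.77, and VPS51 lies apart from the other GARP strains.

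GARP has 4 subunits, all with VPS names, and its strains divided by sign. VPS51, the subunit that binds the SNARE TLG1, had 1.23, 0.97 and 0.76. It was called positive at 0.99 ± 0.24, or 1.98-fold (limma, adjusted p = 0.0210), and in each tag set alone, at 0.96 and 1.01. VPS52 had -0.09, -2.10 and -2.38, VPS53 had -0.57, -2.31 and -0.98, and VPS54 had -0.29, -1.37 and -1.53. Each of these 3 had its value nearest to 0 in experiment 1, and all 9 strain values were negative, below every value of VPS51. Single tags were not all negative. Tag set A of VPS52 had 0.03 in experiment 1, tag set A of VPS53 had 0.08 in experiment 3, and tag set B of VPS54 had 0.47 in experiment 1. Tag set B of VPS54 also had the highest mean SD among spots of the VPS tags, at 1.62, and 5 of 36 VPS54 values were empty. Their means were -1.52 ± 1.25, -1.28 ± 0.91 and -1.06 ± 0.67, and none was called (limma, adjusted p = 0.115, 0.0899 and 0.0759). By single tags, VPS54 was called negative in tag set A (-1.60, against -0.52 in the other) and VPS53 in tag set B (-1.70), and VPS54 was also called with the median of spots (limma, adjusted p = 0.0240). VPS53 was read by tag set B alone in experiment 2. The 8 strains of Golgi GTPases, SNAREs and other proteins listed beside GARP, such as YPT6, ARL1, TLG1, RIC1 and IMH1, had a median of -0.29. Limma called 0 of them on the mean of both tags. IMH1 alone had an unadjusted p under 0.05 there, while 2589 of all 5204 strains did. RIC1 (positive) and TLG1 (negative) were called in tag set A alone, and TLG2 (positive) and IMH1 (negative) in tag set B alone.

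The retromer strains with VPS names had means that were negative or, for VPS5, near 0. VPS17, a sorting nexin that bends the membrane, had -2.47, -1.23 and -1.14, with a mean of -1.61 ± 0.74 (limma, adjusted p = 0.0421). Its tags differed in spread, at -1.37 ± 0.72 for tag set A and -1.86 ± 2.03 for tag set B, where experiment 1 alone gave -4.15. VPS5, the other sorting nexin of retromer, had 0.52, 0.10 and -0.39, and was not called at 0.07 ± 0.45 (limma, adjusted p = 0.797). VPS5 overlaps VAM10, a gene of vacuole morphology, whose strain stood at 0.02.

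The cargo-binding part of retromer consists of VPS35, VPS29 and PEP8. VPS29 had -0.37, -0.50 and -0.52, a narrow range, and was called negative at -0.46 ± 0.08 (limma, adjusted p = 0.0379). VPS35 had -0.41, -0.20 and -0.53, with a mean of -0.38 ± 0.17, and missed the threshold (limma, adjusted p = 0.0794). PEP8 had 0.75, -0.83 and 0.67, on both sides of 0, and was not called at 0.20 ± 0.89. Its tag means were -0.20 ± 0.34 for tag set A and 0.59 ± 1.45 for tag set B. Retromer as a whole had 2 strains of 5 called negative, against 17.4% of all strains, and a median of -0.38, with VPS17 alone below -1.

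HOPS and CORVET share a core of VPS16, VPS33, PEP3 and PEP5, to which CORVET adds VPS3 and VPS8, and HOPS adds VPS41 and VAM6. No core strain was called. VPS33, an SM protein that binds SNAREs, had -0.22, -0.44 and -0.30, and VPS16 had 0.71, -0.60 and -0.88. Of the CORVET strains, VPS3 had -0.40, -0.85 and -0.81 and was called negative at -0.69 ± 0.25 (limma, adjusted p = 0.0384), in both tag sets. VPS8 had 0.20, -2.38 and -0.13, so that its mean of -0.77 ± 1.40 rested on experiment 2.

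The 2 strains specific to HOPS were on opposite sides. VPS41 had 0.53, 0.78 and 0.60 and was called positive at 0.64 ± 0.13 (limma, adjusted p = 0.0268). Tag set A gave 0.73 and was called, and tag set B gave 0.54 and was not. VAM6 had -0.70, -2.03 and -1.79 and was called negative at -1.51 ± 0.71 (limma, adjusted p = 0.0437), read by tag set A alone in experiments 1 and 2. Over the 8 HOPS and CORVET strains, 1 was called positive and 2 negative, against 16.2% and 17.4% of all strains, and the median was -0.36.

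No strain of the PI3-kinase complexes was called by limma in the mean of both tags or in either tag set. VPS34, the lipid kinase, had the lowest mean at -0.82 ± 0.43 (limma, adjusted p = 0.0587), with -0.35, -1.19 and -0.92. VPS15, its regulatory protein kinase, had 0.42, -1.36 and -0.65. VPS30, which is shared by the complexes of autophagy and of sorting, stood at -0.29 ± 0.08, VPS38, of the sorting complex, at -0.04 ± 0.17, and ATG14, of the autophagy complex, at 0.20 ± 0.15. Of the 4 with VPS names, VPS34 and VPS30 had an unadjusted p under 0.05 by limma. So did 21 of the 38 VPS strains and 2589 of all 5204 strains. VPS38 overlaps DCR2, whose strain was not called at 0.02.

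The endosomal GTPase pathway included the lowest mean of the 38 tested VPS strains. VPS9 encodes the exchange factor that activates VPS21, a Rab5-type GTPase. The VPS9 strain had -1.25, -2.29 and -1.57, with a mean of -1.70 ± 0.53, or 3.26-fold from 0 (limma, adjusted p = 0.0237), and was negative in both tag sets, at -1.60 and -1.81. VPS21 had -1.90, -1.03 and -0.70 and stood just outside the threshold at -1.21 ± 0.62 (limma, adjusted p = 0.0518). Its repeated spots varied widely, with a mean SD among spots of 1.45 for tag set A and 1.41 for tag set B, against a median of 0.15 over the 32 VPS tags with 6 spots, and 7 of 36 values were empty. VPS45, an SM protein of endosomal fusion, stayed between -0.07 and 0.14.

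Of 7 further strains of Rab and SNARE partners at endosomes and the vacuole, 1 was called positive and 2 negative. Of all strains tested, 16.2% and 17.4% were. MON1, of the exchange factor for the Rab7-type GTPase YPT7, stood at 0.80 ± 0.17, with 0.79 and 0.81 in its tags. VAM7, a vacuolar SNARE, stood at -2.27 ± 0.27 and YPT7 at -2.53 ± 0.10. VAM7 had 7 of 36 values empty and 1 at the lowest deposited ratio, and YPT7 had 2 of 36 at that ratio. The tags of VAM7 and YPT7 differed widely, at -4.31 and -0.23 for VAM7 and at 0.01 and -5.07 for YPT7. The difference between tags passed limma's test in both (limma, adjusted p = 0.0254 and 0.0115).

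VPS1, a dynamin-like GTPase that acts in vesicle formation at the Golgi and endosomes, was negative on every array, at -0.83, -1.85 and -1.57. Its mean was -1.42 ± 0.53, or 2.68-fold from 0 (limma, adjusted p = 0.0308), with both tags called, at -1.68 and -1.16. VPS13, a lipid transfer protein, had -0.13, -0.51 and -0.14, but its tag set A value was called negative (-0.93) and its tag set B value positive (0.41). VPS55 and VPS68 form an endosomal membrane complex. VPS55 had 0.17, 0.29 and 0.11 and was called positive in tag set B alone (0.53), and VPS68 stood at 0.16 ± 0.12. VPS74, which retains glycosyltransferases in the Golgi, had 0.45, 0.62 and 0.30 and just missed the threshold (limma, adjusted p = 0.0532). Among the other Golgi cargo adaptors listed, ENT3 was called negative (-0.99 ± 0.34) and GGA2 positive (0.41 ± 0.04), while GGA1 and ENT5 were not called.

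Limma called none of the strains with VPS names outside these groups. VPS501 alone had an unadjusted p under 0.05, while 2589 of all 5204 strains did. VPS62 and VPS70 stayed near 0, at 0.04 ± 0.16 and 0.02 ± 0.15. VPS501 (-1.19 ± 0.80), VPS64 (-1.07 ± 1.01), a protein also known as FAR9, and VPS75 (-0.79 ± 1.23) had wide spreads and empty values. VPS75 was read by tag set B alone, with 0.62, -1.62 and -1.36, and overlaps CWC25, whose strain was called negative at -2.31. VPS73 had -2.37 and -1.41 in experiments 2 and 3, with -0.29 for tag set A and -3.48 for tag set B, and was not tested.

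A strain's tags differ in sequence and give separate readings, which were compared in the 33 VPS strains with both tags on all arrays. Pearson's r between the tag means was 0.81 and Spearman's rho 0.74 across these strains, which share the arrays and are not independent replicates. Across all 4293 strains with both tags the values were 0.48 and 0.56. The median absolute difference between tags was 0.23 for the VPS strains and 0.33 for all. In the test of tag set A minus tag set B, limma called 0 of 33 VPS strains, against 7.22% of all strains, with 7 of the 33 at an unadjusted p under 0.05. The largest differences among the VPS strains were those of VPS20 (-1.41), VPS13 (-1.34) and VPS8 (1.32).

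Both tags were called positive in 3 of 33 (VPS25, VPS36 and VPS51), or 9.09%, against 11.2% of all strains with both tags, and both negative in 3 (VPS9, VPS1 and VPS3), or 9.09%, against 5.71%. VPS13 was the 1 VPS strain whose tags were called in opposite directions (3.03%, against 1.47%). Tag set A alone called 5 of 34 VPS strains positive and 8 negative, against 18.9% and 15.6% of all strains. Tag set B alone called 5 of 37 positive and 6 negative, against 18.2% and 14.9%.

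**Figure D3:**
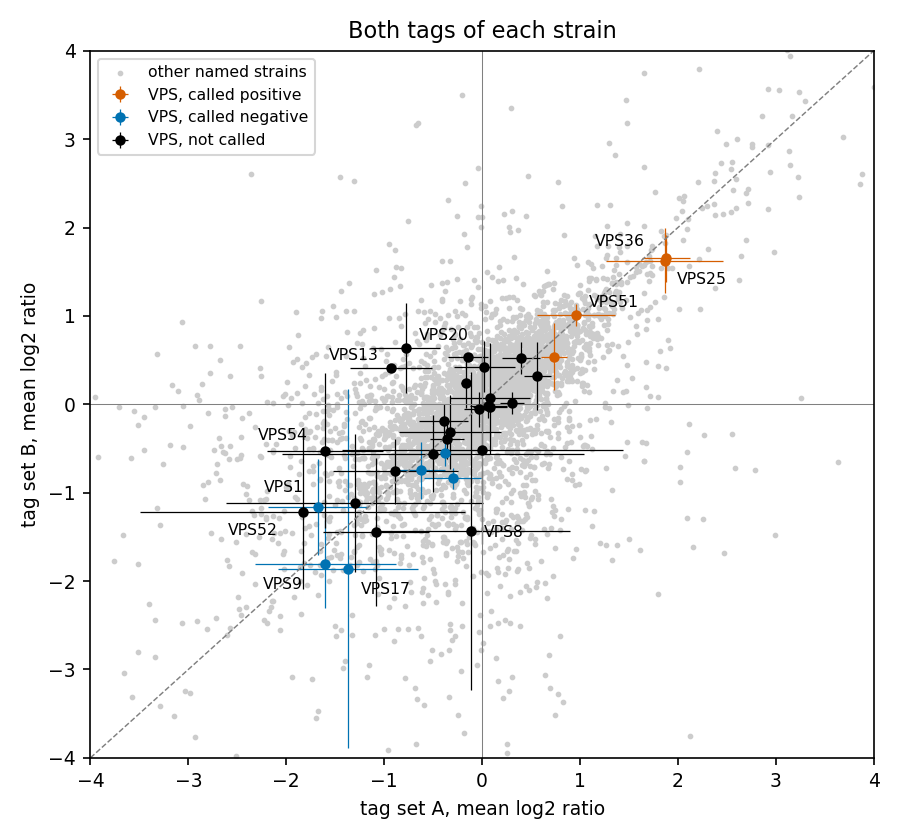
Mean log2 ratio in tag set A (horizontal axis) against tag set B (vertical axis) for the 33 VPS strains with both tags on all arrays, with SD bars over 3 arrays, above the other named strains (grey, those outside -4 to 4 not shown). The dashed line marks equal values, and VPS25, VPS36 and VPS51 lie near it, while VPS13 and VPS20 lie on opposite sides of 0 in their tags.

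Spread and empty values went with the negative side. The 10 tested VPS strains at -1 or below had a median SD over arrays of 0.71, against 0.18 for the 28 above -1. The corresponding medians over all strains were 0.70 and 0.20. All 34 empty values of the tested VPS strains fell in strains with a negative mean (6.30% of their values), and the strains with a positive mean had 0. The share of empty values was 4.80% in the VPS strains and in all strains, and over all strains it was 11.7% at -1 or below and 3.53% above. No VPS value stood at the lowest deposited ratio or at a placeholder. The files used here hold no intensities, and the part of signal over background in these values was not tested.

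The VPS strains also differed between the arrays. Experiment 1 was the array with the lowest value in 5 of 38 strains, experiment 2 in 13 and experiment 3 in 20, or 13.2%, 34.2% and 52.6%. Over all strains these shares were 32.3%, 34.7% and 33.0%. The median of the VPS strains was 0.01 in experiment 1, -0.45 in experiment 2 and -0.40 in experiment 3. Experiments 2 and 3 were also closest to each other across the VPS strains, with Pearson's r of 0.77, against 0.45 for experiments 1 and 2 and 0.58 for experiments 1 and 3. These correlations describe strains that share their arrays.

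Fitted as a slope over the 5-FOA percentage, 31 of 38 VPS strains had a negative slope (81.6%), against 50.5% of all strains and 16 of 36 genes of the lists without a VPS name (44.4%). The median slope was -0.33 per 0.1% 5-FOA, against -0.0056 over all strains. No single slope passed the test: limma called 0 of 38 and 0 of all strains, and 2 VPS strains (VPS21 at 1.20 and VPS5 at -0.90 per 0.1%) had an unadjusted p under 0.05, or 5.26%, against 5.05% of all strains. The difference between the VPS strains and all strains in this share was not tested. With 1 array per concentration, the percentage of 5-FOA and the experiment cannot be told apart.

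**Figure D4:**
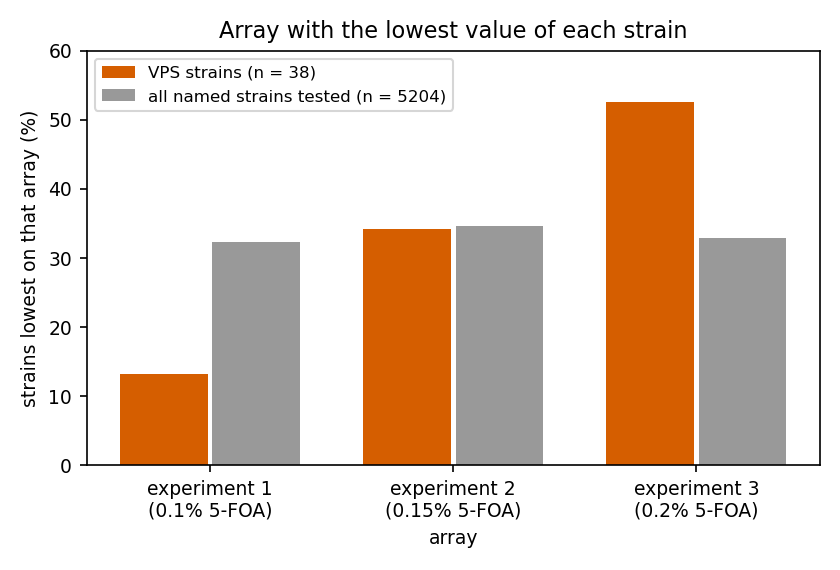
Share of strains (vertical axis, percent) whose lowest value of the 3 arrays fell in experiment 1, 2 or 3, for the 38 VPS strains and for all 5204 named strains tested. The VPS strains were lowest in experiment 1 in 13.2% and in experiment 3 in 52.6%, while all strains were spread at 32.3% to 34.7%.

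All 39 VPS genes matched the RefSeq table of assembly R64. None has a systematic name of chromosome V, the chromosome of CIN8. Since a deletion can touch the gene beside it, the strains of the next genes in R64 were set beside the called members. VPS36 lies next to CDC73, of the Paf1 transcription complex, whose strain was called positive at 3.21. VPS25 lies next to URA8, a CTP synthase gene (0.59, called positive), and VPS51 next to IRS4 (0.88, called positive). VPS41 lies next to PDC2, called negative at -1.78. Of the 6 tested neighbours of the 4 positive members, 4 were positive and 1 negative, where 16.2% and 17.4% of all strains were.

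Neighbours of the other members lay on either side. Examples on the same side as their neighbour were VPS3 (-0.69) next to PUF6 (-0.61) and VPS54 (-1.06) next to REG1 (-0.99), both neighbours called negative. VPS52, VPS15, VPS34, VPS38, VPS28, VPS64 and VPS75 also had a negative mean and a neighbour called negative. Examples on the opposite side were VPS29 (-0.46) next to ARD1, an acetyltransferase gene with 4.24, and VPS53 (-1.28) next to MAD2, of the spindle checkpoint, with 2.74. VPS20 (-0.07) lies next to CTF18, of a cohesion clamp loader, with 3.44. The called VPS17 and VPS4 also lie next to genes called positive, YOR131C (1.13) and YPR172W (0.64). Several other members had a neighbour called on the opposite side. Of the 12 tested neighbours of the 6 negative members, 3 were positive, 1 negative and 8 not called, where 16.2% and 17.4% of all strains were positive and negative. The part of neighbouring genes in the VPS values was not tested. Of the genes named as partners because a VPS-named reading frame overlaps them, RGP1 (0.23), YPT6 (-0.28), SFH1 (-0.48) and SRP54 (-3.73 ± 2.41) were not called. Those reading frames are not among the 39 VPS genes described here. The 3 overlaps of these VPS genes with a next gene in R64 were those with VAM10, DCR2 and CWC25.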

How the data were processed

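Tag DNA of single and double mutant pools was hybridised together on 3 two-colour arrays, and GenePix 5.1 read the images, per the labels. The authors deposited 1 log2 ratio per probe and array. No formula, background correction, normalization or filter is given in the sources used here. Platform annotation named 18794 of 22575 probes. Probes 10971 identifiers apart named the same gene in all 9397 pairs and were treated as the 2 tags of a strain. A set of 36 values at a ratio of 999999 was left out as placeholders, which was decided with the values in view. From each value the median of its array and tag set was subtracted, the 1 to 6 spots of a tag were averaged, and then the tags of a strain. Strains measured on all arrays were fitted with limma 3.58.1 in R 4.3.3 (lmFit on an intercept, eBayes, two-sided, Benjamini-Hochberg over all strains, threshold 0.05), as were each tag set, the difference between tags and a slope over the 5-FOA percentage. The fit was tested on simulated data. Tables and plots were made with Python 3.11.15, pandas 2.3.3, numpy 2.4.6 and matplotlib 3.10.9. The members, complexes and gene lists were chosen with earlier results of these data known. Values on every array were given for members called by limma in the mean or in a tag set and for complexes with a called member, and genes without a VPS name were named where called or overlapping. The remaining names in the text, the neighbours of members among them, were chosen after their values were seen.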

Additional observations from a re-analysis of the deposited data

How the results depend on the processing

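No paired analysis was possible because the 3 arrays form 1 group, each with both pools. Keeping the placeholders was an alternative chosen after seeing the data. All 10 called VPS strains kept their sign under all 13 alternatives. The fits without 1 experiment could not change it, since each of these strains had 1 sign on all 3 arrays. The covariate fit could not either, since it returns the same means. Requiring both tags on all arrays also returns the same means. Keeping the placeholders left them unchanged, since no VPS value was a placeholder. Leaving out experiments 1, 2 or 3 gave 0 calls in each direction (0 to 0) and 0 to 0 in retromer, ESCRT, HOPS/CORVET and GARP, with a smallest adjusted p of 0.0610 to 0.0758. Tag set A alone then called 0 to 1 VPS strains and tag set B alone 0 to 0. With the 5-FOA percentage as a covariate (228 of all strains called), 2 were positive and 0 negative, with 0 in retromer, HOPS/CORVET and GARP. The tag value nearer to 0 (751 of all strains called) gave 3 positive (VPS25, VPS36 and VPS51) and 0 negative, with 0 in retromer and HOPS/CORVET. Without centring 12 were negative, with 2 in the PI3-kinase complexes. Requiring both tags on all arrays gave 1 PI3-kinase call. Tag set A alone gave 1 call in retromer, 5 in ESCRT and 2 in GARP, and tag set B alone 1 in retromer, 1 in HOPS/CORVET and 2 in GARP. With the median of spots GARP had 2. VPS13 turned positive (0.41) in tag set B and with the nearer tag, VPS20 in tag set B (0.64) and without experiment 3 (0.092; -0.23 to 0.092 over the experiments left out), and VPS55 turned negative (-0.15) in tag set A and with the nearer tag. Of 219 further values of 17 named strains, 153 kept their side of the threshold and their sign. For the other changes the cause was not tested. Intensities were not used here, so that signal over background is unknown.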
